A study of Mus musculus with 49 samples.

Results

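This account covers 79 mouse genes of growth factors and receptor tyrosine kinases, out of 13852 genes with a named probe, in cells on the way to pluripotency and in pluripotent lines. They were chosen by symbol alone: genes whose current mouse symbol begins with Fgf and a digit, Fgfr, Fgfbp, Pdgf, Igf, Vegf, Erbb, Epha, Ephb or Efn, or is Pgf, Egfr, Ereg, Areg, Hbegf, Kit, Kitl, Flt1, Flt3, Flt4, Kdr, Met or Hgf; 1 further gene with a matching symbol is not analysed here. This rule by symbol was set with earlier results of these data known. The symbols bring in genes that are neither ligand nor receptor of the families these symbols stand for. Among them, 3 encode proteins binding Igf2 mRNA (Igf2bp1, Igf2bp2 and Igf2bp3). A further 3 are FGF homologous factors that stay inside the cell (Fgf11, Fgf13 and Fgf14). Another 4 are other matches by symbol, such as Fgfr1op2 and the antisense gene Igf2os. Of the 79 genes, 47 had a value on all 49 arrays. Efna5 and Fgfrl1 had more than 1 probe, and the brightest stood for the gene.

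The study set out to induce pluripotency in mouse somatic cells with transcription factors other than the usual ones, and measured gene expression on one-colour arrays labelled with Cy5, in 23 groups. Pluripotent cultures were profiled beside uninfected fibroblasts: lines G6Gm, G3 and Dlx3RNAi of induced pluripotent stem cells (iPSC), strain OGXICR, the last carrying the treatment label Dlx3 RNAi, and the embryonic stem cell (ESC) line R1 of strain 129, with 2 arrays each and 2 arrays of fibroblasts (MEF). The infected groups were fibroblasts carrying a doxycycline-inducible lentivirus. SKM stands for SOX2, KLF4 and MYC, and was combined with OCT4, GATA4, GATA6, SOX7, PAX1, CEBPa, HNF4a, GRB2, MIXL1 or the empty vector (EV), against MEF1 EV, fibroblasts with the empty vector alone. Each of these groups had 2 arrays, except GATA4+SKM with 3. OKM stands for OCT4, KLF4 and MYC. OKM+EV had 3 arrays against 2 of MEF2 EV, and OKM with SOX1, SOX3 or GMNN had 2 each against 2 of OKM+SOX2. ESC line B6 of strain C57BL\6 had 3 arrays and no partner. MEF and all infected groups were female OGXICR skin fibroblasts of embryonic day D13.5, with the epidermis removed and grown in serum. The iPSC lines also carry embryonic day D13.5 in their labels, and the ESC lines carry no embryonic day. The time between infection and harvest is not given in the sources used here. The pluripotent lines grew on mitomycin C-treated fibroblast feeders, with the MEK inhibitor PD0325901 and CHIR99021 or with LIF. Each line is 1 line, and whether the arrays of a group came from separate cultures is not given, so the p-values measure the spread between arrays.

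As background, these proteins carry signals between cells. A secreted ligand of the FGF, PDGF, IGF, VEGF or EGF family binds a receptor that spans the membrane and whose inner part is a tyrosine kinase; the paired receptors then phosphorylate each other and drive the Ras-ERK and PI3K-AKT pathways. Eph receptors work the same way with ephrins, which are themselves held on the neighbouring cell. Binding proteins in the matrix set how much ligand is free: the Igfbp proteins hold IGFs, and Fgfbp1 releases FGFs from heparan sulfate. In fibroblasts, PDGF receptors drive growth and migration. In mouse embryonic stem cells, FGF signalling through ERK pushes cells out of the naive state, which is why a MEK inhibitor is used in their medium, and KIT is a known surface receptor of these cells and of primordial germ cells.

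The promoters of Pgf, Kit, Fgfbp1 and Pdgfra are shown because these genes carry the main differences below: the first 3 were higher in the pluripotent lines and Pdgfra was lower. Each window runs from 250 bases before to 50 bases after the annotated start, 5′ to 3′, from RefSeq on build GRCm38.p6. Pgf and Kit each have 2 windows listed, and the first is shown. The Pgf window lies at chr12:85177264-85177563 on the minus strand and that of Kit at chr5:75574737-75575036 on the plus strand. Those of Fgfbp1 and Pdgfra lie at chr5:43981750-43982049 on the minus strand and chr5:75152001-75152300 on the plus strand. Capitals mark a GC box (GGGCGG on either strand) or a TATA box (TATAAA).
Pgf: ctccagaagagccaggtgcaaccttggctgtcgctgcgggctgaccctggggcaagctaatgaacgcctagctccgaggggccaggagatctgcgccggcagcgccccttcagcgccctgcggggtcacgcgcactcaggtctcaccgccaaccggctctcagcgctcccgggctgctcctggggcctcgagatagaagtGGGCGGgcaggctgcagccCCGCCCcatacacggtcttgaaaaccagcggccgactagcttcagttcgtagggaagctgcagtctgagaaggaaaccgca
Kit: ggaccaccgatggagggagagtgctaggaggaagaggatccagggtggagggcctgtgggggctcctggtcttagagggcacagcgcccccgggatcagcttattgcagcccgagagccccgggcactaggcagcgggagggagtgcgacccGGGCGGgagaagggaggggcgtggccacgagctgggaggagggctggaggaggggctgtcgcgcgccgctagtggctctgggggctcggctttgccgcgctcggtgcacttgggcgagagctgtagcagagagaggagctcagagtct
Fgfbp1: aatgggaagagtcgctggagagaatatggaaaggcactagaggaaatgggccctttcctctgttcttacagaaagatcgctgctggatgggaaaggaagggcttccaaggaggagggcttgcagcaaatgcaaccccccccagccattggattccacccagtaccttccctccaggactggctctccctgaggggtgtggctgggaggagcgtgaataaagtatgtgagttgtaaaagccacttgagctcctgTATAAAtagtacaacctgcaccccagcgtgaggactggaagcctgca
Pdgfra: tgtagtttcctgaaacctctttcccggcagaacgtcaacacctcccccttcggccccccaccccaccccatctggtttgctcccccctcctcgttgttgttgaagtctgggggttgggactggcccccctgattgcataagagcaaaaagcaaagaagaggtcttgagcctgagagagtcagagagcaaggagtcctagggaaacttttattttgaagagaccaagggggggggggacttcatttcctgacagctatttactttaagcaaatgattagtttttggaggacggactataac

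The Pgf window holds 2 GC boxes and that of Kit holds 1. That of Fgfbp1 holds a TATA box and that of Pdgfra neither. G and C make up 66% of the Pgf window and 69% of that of Kit, against 53.3% for Fgfbp1 and 51% for Pdgfra. In all, 7 letter strings were searched on both strands, and the 4 windows hold none of the rest. Of 32851 windows of that length, 35.7% hold GGGCGG, 13.6% hold TATAAA, 7.15% hold the E-box CACGTG and 1.74% hold the octamer ATGCAAAT. The SOX core ACAATG is in 12.6% of these windows. The AP-1 site, spelled TGANTCA, was found in 7.81% of these windows. The site of GATA factors was spelled AGATAA and was found in 11.2% of them. Windows on chromosome 18 were not counted. These shares count every listed window, whereas 1 window per gene was counted for the 79 genes, so they are not in like units. A window was found for 67 of the 79 genes; a GC box is in 39 of these, a TATA box in 12, an E-box in 8, a GATA site in 8, a SOX core in 6, an AP-1 site in 2 and the octamer in 0. A match is a run of letters, not evidence of binding.

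The deposited values are linear intensities, which set no level of one gene against another. Below, a value is an array's intensity, and a log2 fold change is a difference of mean log2(intensity + 32) with its standard error, from 1 limma fit over all 49 arrays. A gene is said to have risen or fallen where the Benjamini-Hochberg adjusted p over all genes of the comparison was under 0.05. The arrays fell into 5 sets by their missing probes and value distributions, and comparisons were made within a set only: the lines with MEF; SKM+EV, the factors with SKM and MEF1 EV; OKM+EV with MEF2 EV; the other OKM groups; and ESC B6. The labelled cell types were checked against markers. Of 4 measured markers of pluripotent cells, 4 were higher in the lines than in MEF, with sums of 8777 to 16079 on the lines' arrays, against 325 to 333 in MEF. Of 15 fibroblast markers, 12 were lower in the lines. Their sum was 50750 to 50779 in G3, 69978 to 71007 in R1, 85497 to 90251 in G6Gm and 105315 to 114099 in Dlx3RNAi, against 122722 to 129597 in MEF, and their part in the results below was not tested. Fewer cells of a type and less RNA per cell cannot be told apart in such samples. No detection calls were used, so a marker value above 0 does not show that its cells were present. No introduced factor with a value stood out where it was introduced. Gata4, Gata6, Grb2, Sox1 and Sox3 were not higher there than in the group without them. Klf4 had a mean of 1693 in SKM+EV, against 3592 in MEF1 EV, and of 684.5 in OKM+EV, against 814 in MEF2 EV. Pou5f1 (OCT4) had a mean of 164 in OCT4+SKM, against 118 in SKM+EV and 173 in MEF1 EV, and was higher in MIXL1+SKM, at 223. In OKM+EV it had 61.8, 56.0 and 254.8, against 99.8 and 89.6 in MEF2 EV. In the lines the Pou5f1 probe had means of 124 in G6Gm, 527 in G3, 259 in Dlx3RNAi and 306 in R1, against 35.4 in MEF. Of these only G3 was above the median gene of the set, at 358, so this probe is a weak check of OCT4. Whether the probes cover the introduced sequences is not given. Dlx3 had a mean of 319 in the line labelled Dlx3RNAi, against 266 in G6Gm, 375 in G3 and 573 in R1.

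The first comparison asks how the lines G6Gm, G3, Dlx3RNAi and R1 differ from the fibroblasts. Most of the measured growth factor genes moved: placental growth factor, Kit, Fgfbp1 and Igfbp2 were far higher in the lines, and the PDGF receptor Pdgfra, the IGF-binding proteins Igfbp3, Igfbp4 and Igfbp6, Fgfr2, Igf2 and Igf2r were far lower. Of 70 measured members, 52 passed the test, 17 higher and 35 lower, where the background was 57.8% of all genes tested, 28.7% higher and 29.1% lower. By at least 2-fold, 8 members were higher, where the background was 11%, and 21 were lower, where it was 12.2%. The median log2 fold change was -0.43 over the 70 members and 0.03 over all genes.

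**Figure D1:**
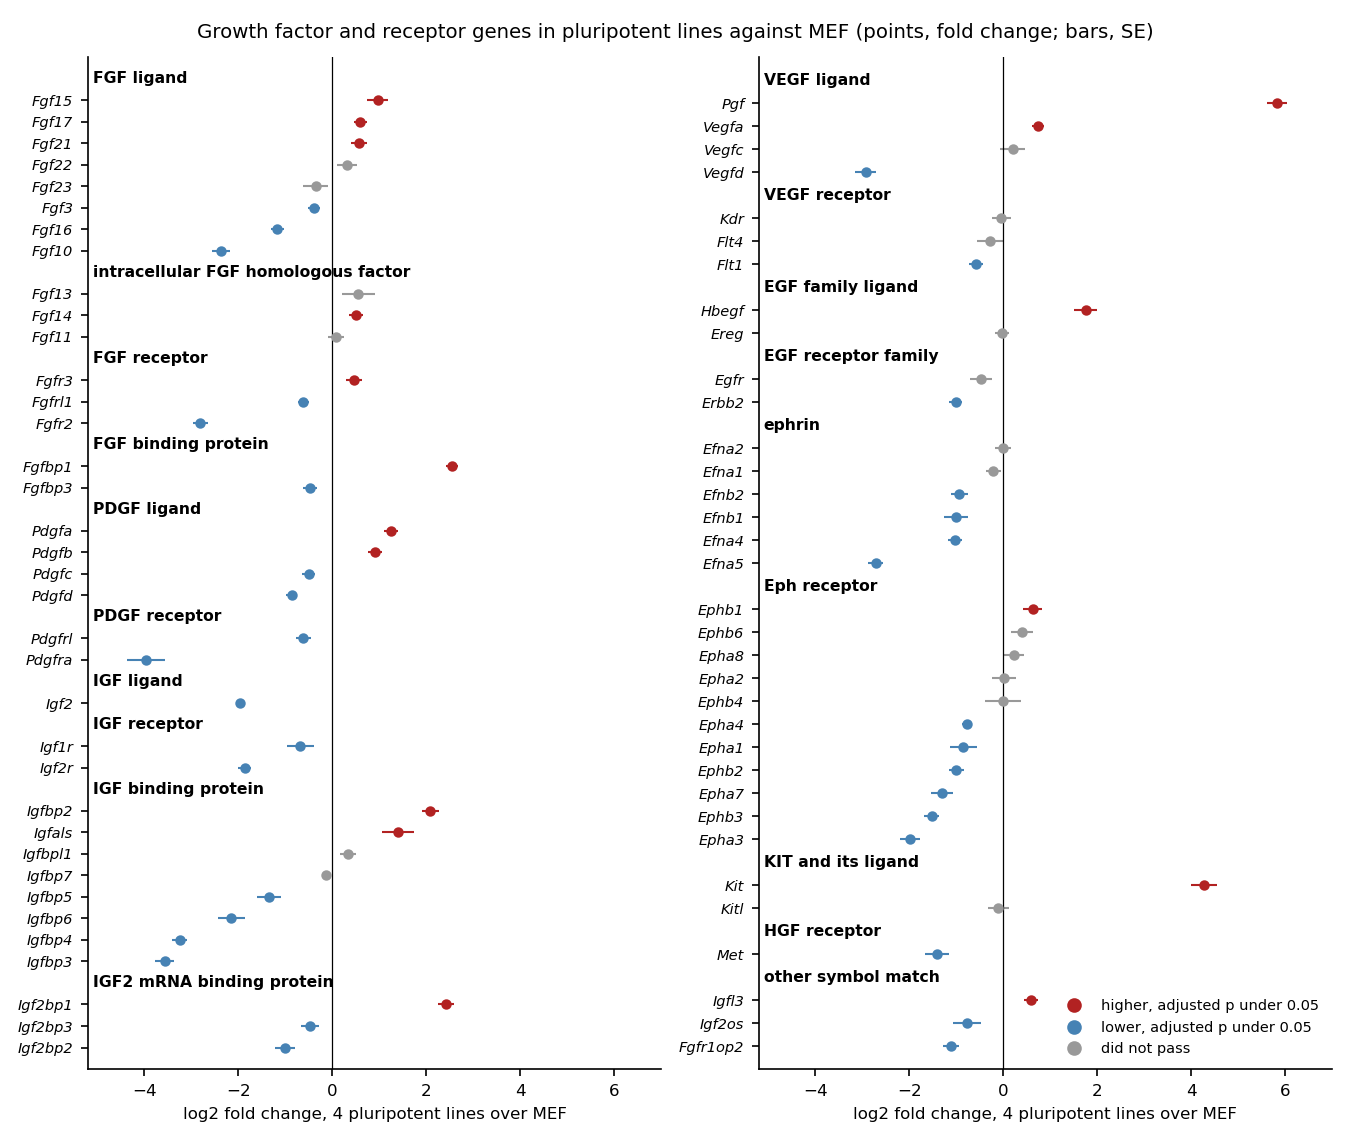
Log2 fold change of each of the 70 measured genes, pluripotent lines (8 arrays) over MEF (2 arrays), grouped by role. The horizontal bars are the standard errors. Red points were higher and blue points lower at adjusted p under 0.05, and grey points did not pass. Pgf stands farthest to the right at 5.83 and Pdgfra farthest to the left at -3.97.

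Among the VEGF ligands, Pgf, placental growth factor, a ligand of FLT1, had intensities of 10688 and 10438 in line G6Gm, 8902 and 7721 in G3, 16585 and 16384 in Dlx3RNAi and 21989.8 and 17154 in R1, against 208 and 185 in MEF (log2 fold change 5.83 ± 0.22, adjusted p = 5.29e-20). Every array of the lines lay far above both of MEF, and R1 and Dlx3RNAi lay above G6Gm and G3. Vegfa, the main ligand for blood vessel growth, rose less, with 7371 and 7702 in line G6Gm, 4991 and 4596 in G3, 10074 and 8826 in Dlx3RNAi and 11246 and 12395 in R1, against 5201 and 4324 in MEF (log2 fold change 0.74 ± 0.12, adjusted p = 5.38e-06). Its G3 arrays overlapped MEF and those of the other 3 lines did not. Vegfd, a ligand for lymphatic vessels, fell, with 51.7 to 93.3 on the 8 arrays of the lines, against 768 and 734 in MEF (log2 fold change -2.92 ± 0.22, adjusted p = 1.97e-12). Vegfc had a log2 fold change of 0.20 and an adjusted p of 0.534. Of the VEGF receptors, Flt1 fell by a small amount (log2 fold change -0.57 ± 0.15, adjusted p = 0.00175) with 438 and 594 in line G6Gm, 183 and 176 in G3, 759 and 724 in Dlx3RNAi and 320.4 and 246 in R1, against 532 and 621 in MEF. Its arrays spread widely among the lines, and those of Dlx3RNAi lay above both MEF arrays. Kdr, at 80.0 to 158 on the 8 arrays of the lines, against 112 and 114 in MEF, and Flt4, at 105 to 219 on the 8 arrays of the lines, against 198 and 167 in MEF, did not pass the test, and their arrays overlapped MEF.

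Kit, the receptor for stem cell factor, had intensities of 1682 and 1361 in line G6Gm, 2491 and 2952 in G3, 1008 and 973 in Dlx3RNAi and 5549 and 5803 in R1, against 82.4 and 84.7 in MEF (log2 fold change 4.27 ± 0.28, adjusted p = 1.27e-10). No array of a line came near MEF, and R1 was higher than every iPSC array. Its ligand gene Kitl was dim throughout, at 41.1 to 107 on the 8 arrays of the lines, against 73.4 and 89.1 in MEF, and did not pass the test (log2 fold change -0.10, adjusted p = 0.716). Met, the receptor for hepatocyte growth factor, fell, with 66.9 to 133 on the 8 arrays of the lines, against 274 and 324 in MEF (log2 fold change -1.41 ± 0.26, adjusted p = 2.89e-05).

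In the PDGF family Pdgfra fell far and the ligands split. The other signalling receptor, Pdgfrb, had no value in this set. Pdgfra, the receptor that marks many fibroblasts, had 186 and 164 in line G6Gm, 66.9 and 52.7 in G3, 126 and 139.5 in Dlx3RNAi and 91.1 and 70.2 in R1, against 2094 and 2139 in MEF (log2 fold change -3.97 ± 0.40, adjusted p = 1.01e-09). The lines and MEF were far apart, with G6Gm highest and G3 lowest among the lines. Pdgfra was itself 1 of the 15 fibroblast markers. Pdgfrl, which codes for a protein resembling a PDGF receptor, fell by less (log2 fold change -0.61 ± 0.16, adjusted p = 0.00136), and both Dlx3RNAi arrays, at 705 and 848, lay above those of MEF, at 666 and 622. Of the 4 PDGF ligands, 2 rose and 2 fell. Pdgfa had 2846 to 3896 on the 8 arrays of the lines, against 1539.8 and 1351 in MEF (log2 fold change 1.25 ± 0.15, adjusted p = 4.29e-08), and Pdgfb had 90.0 to 234 on the 8 arrays of the lines, against 74.5 and 57.2 in MEF (log2 fold change 0.91 ± 0.14, adjusted p = 2.25e-05). Pdgfc fell by 0.50 ± 0.14 and Pdgfd by 0.87 ± 0.13 on the log2 scale, with adjusted p = 0.00423 and 4.33e-06. Pdgfb and Pdgfd were dim on all 10 arrays.

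The IGF family fell as far as ligand and receptors go. Igf2, the fetal growth factor expressed from the paternal allele, had 12284 and 10817 in line G6Gm, 4305 and 3942 in G3, 15894 and 16149.9 in Dlx3RNAi and 9776 and 9722 in R1, against 38139 and 34760.4 in MEF (log2 fold change -1.97 ± 0.08, adjusted p = 1.02e-18). It stayed bright in the lines, lowest in G3 and highest in Dlx3RNAi, and no array of a line reached MEF. Igf2r, which takes up and removes IGF2, had 3887 and 4424 in line G6Gm, 2241 and 2311 in G3, 4303 and 4104 in Dlx3RNAi and 2829 and 2586 in R1, against 12169 and 11398 in MEF (log2 fold change -1.86 ± 0.14, adjusted p = 1.97e-12), without overlap. Igf1r, the signalling receptor, fell by less (log2 fold change -0.68 ± 0.29, adjusted p = 0.0417) and its arrays in G6Gm, at 1570.2 and 1346, overlapped MEF, at 1641 and 1443. Of the 8 genes of IGF-binding proteins, 2 rose and 4 fell. Igfbp3, the main carrier of IGFs in serum, had 151 and 172 in line G6Gm, 342 and 383 in G3, 147 and 102 in Dlx3RNAi and 143 and 109.98 in R1, against 2171 and 2714 in MEF (log2 fold change -3.57 ± 0.20, adjusted p = 8.69e-16). Igfbp4, which restrains IGF action, had 789.6 and 735 in line G6Gm, 677 and 1091 in G3, 807 and 1278 in Dlx3RNAi and 888 and 1521 in R1, against 9867 and 8501 in MEF (log2 fold change -3.24 ± 0.16, adjusted p = 6.22e-17). Both were far apart between lines and MEF, and G3 was the highest line for Igfbp3. Igfbp6, which prefers IGF2, had 122 to 250.5 on the 8 arrays of the lines, against 961 and 731 in MEF (log2 fold change -2.15 ± 0.28, adjusted p = 2.41e-07). Igfbp5 had 11516 and 11829 in line G6Gm, 2660.02 and 3354 in G3, 10497 and 13982 in Dlx3RNAi and 2182 and 2069 in R1, against 14316 and 13715 in MEF (log2 fold change -1.35 ± 0.26, adjusted p = 8.55e-05). G3 and R1 lay far below MEF, G6Gm lay just below it and Dlx3RNAi overlapped it. Igfbp2, known for its expression in embryonic tissue, went the other way, with 2144 and 2007 in line G6Gm, 2898 and 3421 in G3, 1188 and 1166 in Dlx3RNAi and 4231 and 4122 in R1, against 622 and 462 in MEF (log2 fold change 2.09 ± 0.18, adjusted p = 2.15e-11), highest in R1 and lowest in Dlx3RNAi.

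Igfals, which codes for the partner of IGFs and Igfbp3 in serum, had 240.4 to 539.96 on the 8 arrays of the lines, against 177 and 97.9 in MEF (log2 fold change 1.40 ± 0.34, adjusted p = 7.19e-04), and without MEF replicate 2 it was at 1.06, adjusted p = 0.0578. Igfbp7 had 31624 to 55249.9 in the lines, against 48214 and 45459 in MEF, and did not pass the test; its highest array was the brightest value of the set, so a rise could not be seen. It differed among the lines, highest in G6Gm and lowest in G3 (range of line means 0.68 on the log2 scale, adjusted p = 1.56e-06). Igfbpl1 had 104 to 158 in the lines, against 97.8 and 96.1 in MEF, and did not pass the test. The proteins that bind Igf2 mRNA split. Igf2bp1 had 1317 and 1375 in line G6Gm, 1863 and 1897 in G3, 1156 and 1013 in Dlx3RNAi and 1622 and 1557 in R1, against 270.1 and 219 in MEF (log2 fold change 2.42 ± 0.17, adjusted p = 3.08e-12), while Igf2bp2, at 582 to 1115 on the 8 arrays of the lines, against 1737 and 1599 in MEF, fell by 1.00 ± 0.22 on the log2 scale (adjusted p = 2.06e-04). Igf2bp3 had a small fall (log2 fold change -0.47 ± 0.20, adjusted p = 0.0416) and its arrays overlapped.

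Of the FGF receptors, Fgfr2 had 596 and 629.8 in line G6Gm, 645 and 724 in G3, 189.5 and 200.04 in Dlx3RNAi and 228 and 192 in R1, against 2539 and 3006 in MEF (log2 fold change -2.81 ± 0.16, adjusted p = 1.03e-15). It was lowest in Dlx3RNAi and R1, intermediate in G6Gm and G3, and every line lay far below MEF. Fgfrl1, a receptor without a kinase, fell (log2 fold change -0.61 ± 0.11, adjusted p = 2.42e-05), and Fgfr3, dim at 109 to 204 on the 8 arrays of the lines, against 84.1 and 115 in MEF, rose (log2 fold change 0.46 ± 0.16, adjusted p = 0.0176). Fgfbp1, which frees FGFs from the matrix, had 898 and 948 in line G6Gm, 2675 and 2663 in G3, 619 and 681 in Dlx3RNAi and 281 and 264 in R1, against 115 and 114 in MEF (log2 fold change 2.55 ± 0.13, adjusted p = 6.09e-17). All 8 arrays of the lines lay above MEF and the order of the lines was G3, G6Gm, Dlx3RNAi and R1. Of 8 measured FGF ligands, 3 rose and 3 fell. Fgf10, a mesenchymal ligand for FGFR2 on epithelium, had 33.0 to 53.4 on the 8 arrays of the lines, against 358 and 350.05 in MEF (log2 fold change -2.36 ± 0.19, adjusted p = 1.14e-08). Fgf15, whose protein acts in the gut and embryo, was highest in R1, at 423 and 373, against 67.9 and 96.1 in MEF (log2 fold change 0.97 ± 0.23, adjusted p = 6.83e-04 over the lines). The rest were dim: Fgf16 fell by 1.17, Fgf3 fell by 0.39, and Fgf17 and Fgf21 rose by 0.60 and 0.57 on the log2 scale.

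Of the EGF family, Hbegf, a ligand of EGFR held on the membrane until cut, had 1630.5 and 1701 in line G6Gm, 585 and 646 in G3, 1574 and 1831 in Dlx3RNAi and 1531 and 1567 in R1, against 361 and 356 in MEF (log2 fold change 1.75 ± 0.24, adjusted p = 3.13e-07), with G3 lowest among the lines and no overlap. Ereg, another EGFR ligand, had 287 to 643 on the 8 arrays of the lines, against 443 and 555 in MEF (adjusted p = 0.92). Egfr had 1656 and 1723 in line G6Gm, 357 and 401 in G3, 1549 and 1683 in Dlx3RNAi and 804 and 726 in R1, against 1237 and 1444 in MEF and did not pass the test (log2 fold change -0.48 ± 0.23, adjusted p = 0.0805): G6Gm and Dlx3RNAi lay above MEF, and G3 and R1 below. Erbb2, dim at 34.6 to 54.3 on the 8 arrays of the lines, against 115 and 131 in MEF, fell (log2 fold change -1.01 ± 0.14, adjusted p = 3.32e-07).

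The Eph receptors and ephrins, which steer cell sorting on contact, mostly fell: 6 of 11 measured Eph receptors and 4 of 6 ephrins were lower, and 1 Eph receptor, Ephb1, was higher. Epha3 had 137 to 322 on the 8 arrays of the lines, against 911 and 931 in MEF (log2 fold change -1.98 ± 0.21, adjusted p = 2.32e-09), and Ephb3 had 217 to 422 on the 8 arrays of the lines, against 862 and 935 in MEF (log2 fold change -1.52 ± 0.15, adjusted p = 1.01e-09). The ephrin Efna5 had 38.2 to 81.5 on the 8 arrays of the lines, against 617 and 551 in MEF (log2 fold change -2.71 ± 0.15, adjusted p = 1.61e-11). For these 3 no array of a line reached MEF. Efna4, Efnb1 and Efnb2 fell by 1.03, 1.01 and 0.94 on the log2 scale, and Epha1, Epha4, Epha7 and Ephb2 by 0.85, 0.77, 1.30 and 1.00. Epha2, at 441 to 995 on the 8 arrays of the lines, against 623 and 569 in MEF, Epha8, Ephb4 and Ephb6 did not pass the test. Ephb4 was bright on both sides, at 1082 to 2123 against 1679 and 1435. Among the other matches by symbol, Fgfr1op2 had 585 to 841 on the 8 arrays of the lines, against 1469.7 and 1478 in MEF (log2 fold change -1.11 ± 0.17, adjusted p = 1.44e-06).

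**Figure D2:**
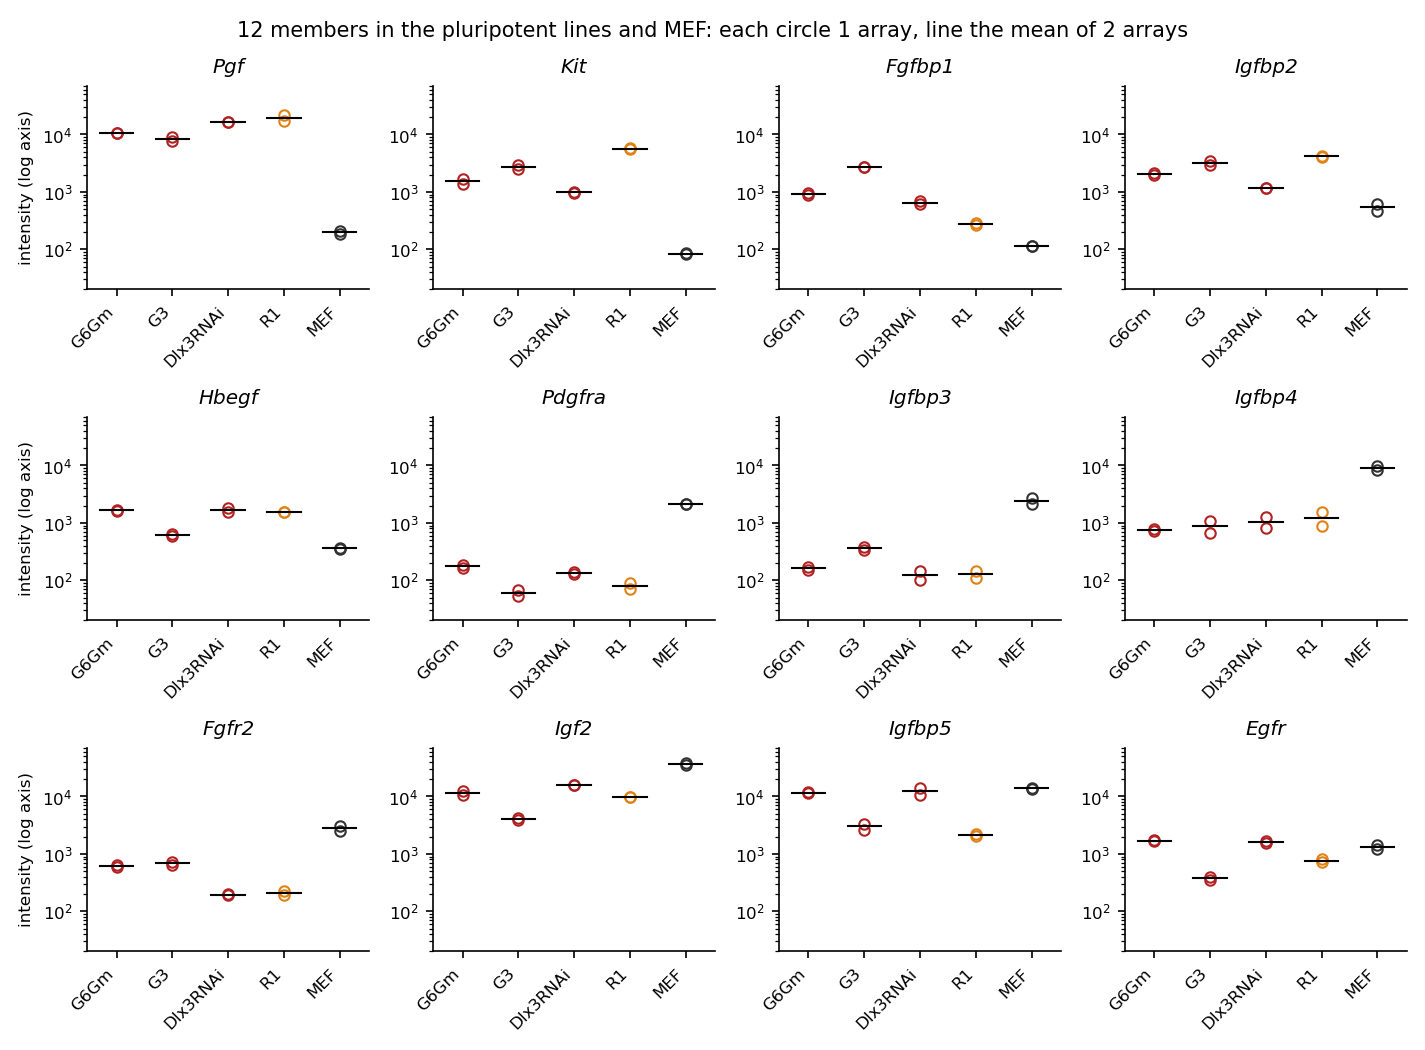
Intensity of 12 genes (log axis) on every array of iPSC G6Gm, G3 and Dlx3RNAi, ESC R1 and MEF, 2 points a group. Pgf, Kit and Fgfbp1 lie above MEF on all 8 arrays of the lines and Pdgfra, Igfbp3 and Fgfr2 below it, while Egfr and Igfbp5 separate line from line.

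Genes that act downstream were read from lists of the pathway. Of 19 measured ERK feedback and target genes, 6 rose and 5 fell, with a median log2 fold change of 0.26. Dusp6, a phosphatase induced by ERK, had 119 to 269.9 on the 8 arrays of the lines, against 1117 and 1082 in MEF and fell by 2.37 on the log2 scale (adjusted p = 6.82e-12), and Ccnd1, cyclin D1, fell by 2.07. Etv5, an ETS factor downstream of FGF, had 2112 to 3202 on the 8 arrays of the lines, against 613 and 571 in MEF and rose by 2.03, and Ier3 rose by 2.12. Of 30 adaptors and Ras-MAPK kinases, 8 rose and 11 fell, with a median of -0.16. Gab1, an adaptor of MET and other receptors, rose by 2.35, Map2k1, the kinase MEK1, by 1.93 and Rps6ka1 by 2.82, and Mapk3, the kinase ERK1, fell by 1.44. Of 18 PI3K-AKT genes, 1 rose and 9 fell, with a median of -0.62. Irs1, the adaptor of the IGF1 and insulin receptors, had 286 to 554 on the 8 arrays of the lines, against 2950 and 2944 in MEF and fell by 2.78 (adjusted p = 4.11e-17), and Inpp5d, which removes a phosphate from the PI3K product, rose by 3.34. Of 14 co-receptors, 2 rose and 8 fell, with a median of -1.04: Gpc6, Sdc2 and Nrp1 fell by 2.28, 2.15 and 1.95. Of 16 other receptor tyrosine kinases, 5 rose and 5 fell, and Ddr2, a collagen receptor, and Axl fell by 2.39 and 2.00. Of 4 other EGF family ligands, 1 rose and 3 fell. These counts stand beside a background of 28.7% higher and 29.1% lower.

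The iPSC lines were then set against ESC R1. Over the mean of the 3 lines, 18 of 70 measured members passed the test, 9 higher and 9 lower, where the background was 7.2% higher and 6.35% lower; without ESC R1 replicate 2 the count was 10. In a fit of the set of the lines and MEF alone it was 32, where the background was 29.9%. Fgfbp1 was higher in every line, and Kit, Igfbp2 and Fgf15 were lower over the lines. Fgfbp1 had 898 and 948 in G6Gm, 2675 and 2663 in G3 and 619 and 681 in Dlx3RNAi, against 281 and 264 in R1 (log2 fold change 1.99 ± 0.13, adjusted p = 2.40e-12). Kit had 1682 and 1361 in G6Gm, 2491 and 2952 in G3 and 1008 and 973 in Dlx3RNAi, against 5549 and 5803 in R1 (log2 fold change -1.81 ± 0.29, adjusted p = 2.31e-04), and Igfbp2 had 2144 and 2007 in G6Gm, 2898 and 3421 in G3 and 1188 and 1166 in Dlx3RNAi, against 4231 and 4122 in R1 (log2 fold change -1.07 ± 0.18, adjusted p = 1.18e-04). For all 3 genes no iPSC array overlapped R1. Igfbp5 had 11516 and 11829 in G6Gm, 2660.02 and 3354 in G3 and 10497 and 13982 in Dlx3RNAi, against 2182 and 2069 in R1 (log2 fold change 1.81 ± 0.27, adjusted p = 3.19e-05), and G6Gm and Dlx3RNAi lay far above G3, which was itself above R1. Fgf15 had 149 and 143 in G6Gm, 97.0 and 219 in G3 and 138 and 145 in Dlx3RNAi, against 423 and 373 in R1 (log2 fold change -1.28 ± 0.24, adjusted p = 3.27e-04). Vegfa had 7371 and 7702 in G6Gm, 4991 and 4596 in G3 and 10074 and 8826 in Dlx3RNAi, against 11246 and 12395 in R1 (log2 fold change -0.76 ± 0.13, adjusted p = 7.81e-05), and Dlx3RNAi came nearest to R1. Efnb1, an ephrin, was higher (log2 fold change 1.21 ± 0.26, adjusted p = 0.00134), and without ESC R1 replicate 2 it was at 1.09, adjusted p = 0.0553. The lower level of Pgf (log2 fold change -0.78) did not hold without ESC R1 replicate 1 (-0.60, adjusted p = 0.295). The 3 iPSC lines share their strain and differ in it from R1, so strain and origin cannot be told apart here.

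Taken singly against R1, G6Gm had 23 members called, 13 higher and 10 lower (background 17.6% of all genes tested, 9.79% higher and 7.78% lower), G3 had 13, 3 higher and 10 lower (background 8.33% of all genes tested, 4.34% higher and 3.99% lower), and the line labelled Dlx3RNAi had 20, 13 higher and 7 lower (background 19.4% of all genes tested, 9.62% higher and 9.79% lower). These comparisons share the R1 arrays. The counts fell when 1 array was left out: for G6Gm to 13 without its replicate 2 and 15 without ESC R1 replicate 1, for G3 to 8 without its replicate 1, and for Dlx3RNAi to 13 without its replicate 2 or without ESC R1 replicate 1. In the fit of the set alone they were higher, 20 for G3 (background 20.7%) and 32 for Dlx3RNAi (background 37.5%).

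Tested over the 4 lines together, 30 of 70 members differed between lines (moderated F test), where the background was 32.2%. The widest ranges of line means belonged to Fgfbp1, Igfbp5, Kit, Egfr, Igf2, Flt1, Igfbp2 and Fgfr2. Set against each other, G6Gm against G3 gave 20 members (background 19.7%), and Dlx3RNAi against G3 gave 27 (background 25.3%). Dlx3RNAi against G6Gm gave 4 (background 2.84%). In the fit of the set alone, G6Gm against G3 gave 31 (background 35.3%) and Dlx3RNAi against G6Gm gave 14 (background 14.9%). G3 stood apart in Egfr, at 1656 and 1723 in G6Gm and 1549 and 1683 in Dlx3RNAi, against 357 and 401 in G3: the log2 fold change over G3 was 2.07 ± 0.30 for G6Gm and 2.00 ± 0.30 for Dlx3RNAi (adjusted p = 4.34e-06 and 5.49e-06). Epha4 moved in the same way, with 386 and 413 in G6Gm and 451 and 354 in Dlx3RNAi, against 123 and 99.3 in G3. In Fgfr2 it was Dlx3RNAi that stood apart, at 189.5 and 200.04, against 596 and 629.8 in G6Gm and 645 and 724 in G3; its log2 fold change over G6Gm was -1.51 ± 0.20 (adjusted p = 2.11e-05). Fibroblast markers moved with these differences: 11 of 15 were higher in G6Gm than in G3 and 11 of 15 in Dlx3RNAi than in G3, with the sums given above. Markers of simple epithelium moved the other way: 4 of 4 were lower in G6Gm than in G3 and 3 of 4 in Dlx3RNAi than in G3, with sums of 1754 to 2152 in G6Gm and 3082 to 3551 in Dlx3RNAi, against 6277 to 6443 in G3. The part of either was not tested.

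The next comparison asks what SOX2, KLF4 and MYC do in fibroblasts without OCT4. Igfbp5, Vegfd, Fgf18 and Epha3 fell, and Fgfbp1 and Igfbp6 rose. Of 59 measured members, 20 passed the test, 3 higher and 17 lower, where the background was 19.7% of all genes tested, 9.99% higher and 9.69% lower. The median log2 fold change was -0.22 over the members and -0.02 over all genes. Without SKM+EV replicate 1 the count was 12. Igfbp5 had 4292 and 3976 in SKM+EV, against 28094 and 30448 in MEF1 EV (log2 fold change -2.81 ± 0.33, adjusted p = 2.57e-07). Vegfd had 7402 and 7231 in SKM+EV, against 16883 and 17217 in MEF1 EV (log2 fold change -1.22 ± 0.28, adjusted p = 0.00191), and Fgf18, a ligand active in bone and cartilage, had 213 and 204 in SKM+EV, against 796 and 879.98 in MEF1 EV (log2 fold change -1.85 ± 0.29, adjusted p = 2.29e-05). The arrays of the groups were well apart for all 3 genes. Among the genes that rose, Fgfbp1 had 1729 and 1571 in SKM+EV, against 334 and 374 in MEF1 EV (log2 fold change 2.12 ± 0.16, adjusted p = 5.87e-12), and Igfbp6 had 3606 and 3673 in SKM+EV, against 825 and 745 in MEF1 EV (log2 fold change 2.17 ± 0.36, adjusted p = 4.04e-05), again without overlap. Epha3 had 1217 and 1165 in SKM+EV, against 2440.1 and 2536 in MEF1 EV (log2 fold change -1.04 ± 0.27, adjusted p = 0.00465). Efnb1 (log2 fold change -1.15) lost its call without MEF1 EV replicate 2 (-0.89, adjusted p = 0.119) and without SKM+EV replicate 1 (-0.80, adjusted p = 0.168), and Fgfrl1 (-1.17) lost it when its probes were averaged (-1.11, adjusted p = 0.0712). Pdgfra, which was lower in the pluripotent lines, had 12369 and 10321 in SKM+EV, against 13812 and 13190.2 in MEF1 EV here and did not pass the test (log2 fold change -0.26 ± 0.51, adjusted p = 0.805). Of the lists, 3 of 17 ERK feedback and target genes rose, Ier3 the most by 1.51, and 1 fell. None of 24 adaptors and Ras-MAPK kinases rose and 3 fell. Of 14 PI3K-AKT genes 2 rose and 1, Pik3r1, fell by 1.22. Of 10 co-receptors 2 fell, Nrp1 by 1.52, and of 11 other receptor tyrosine kinases 1 rose. Markers of other cells moved as well. Of 5 keratinocyte markers 3 rose, with sums of 60495 to 68954 in SKM+EV against 3906 to 4343 in MEF1 EV, and of 4 markers of simple epithelium 3 rose, with 9205 to 13473 against 556 to 586. Their part in these results was not tested.

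With OCT4 added, the set of factors is the classical one. Against MEF1 EV, 23 of 59 members passed in OCT4+SKM, 3 higher and 20 lower, where the background was 22.4% of all genes tested, 11.6% higher and 10.8% lower; without MEF1 EV replicate 2 the count was 14. Fgfbp1 had 3174 and 2857, against 334 and 374 in MEF1 EV (log2 fold change 2.98 ± 0.16, adjusted p = 3.47e-15), and Igfbp5 had 7407 and 7142, against 28094 and 30448 in MEF1 EV, and fell by 2.00 ± 0.33 on the log2 scale (adjusted p = 4.81e-05). Vegfd had 4072 and 4194, against 16883 and 17217 in MEF1 EV (log2 fold change -2.04 ± 0.28, adjusted p = 1.99e-06). The arrays of the groups did not overlap for these 3 genes. Against SKM+EV, 5 members passed, 2 higher and 3 lower (background 11% of all genes tested, 5.28% higher and 5.73% lower), and 3 did without SKM+EV replicate 1. In a fit of the SKM set alone 16 passed, 5 higher and 11 lower, where the background was 22.9%. Fgfbp1 had 3174 and 2857 in OCT4+SKM, against 1729 and 1571 in SKM+EV (log2 fold change 0.86 ± 0.16, adjusted p = 2.95e-04), and Pdgfrl had 2752 and 2301 in OCT4+SKM, against 5148 and 4926 in SKM+EV (log2 fold change -0.99 ± 0.20, adjusted p = 6.67e-04). Igfbp6 had 1629 and 1694 in OCT4+SKM, against 3606 and 3673 in SKM+EV (log2 fold change -1.12 ± 0.36, adjusted p = 0.0416), a call lost on leaving out any single array of the 4 (adjusted p = 0.148 to 0.169). Igfbp2 had 876 and 932 in OCT4+SKM, against 2088 and 1689 in SKM+EV (log2 fold change -1.03 ± 0.22, adjusted p = 0.00177), and without SKM+EV replicate 1 it was at -0.88, adjusted p = 0.051. Pgf, the gene farthest above MEF in the lines, had 90.9 and 89.5 in OCT4+SKM, against 164 and 147 in SKM+EV. It did not pass the test (log2 fold change -0.62 ± 0.27, adjusted p = 0.165).

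The other factors were each compared with SKM+EV, whose 2 arrays all these comparisons share. GATA4+SKM changed 40 of 59 members, 14 higher and 26 lower (background 53.8% of all genes tested, 29% higher and 24.8% lower), and GATA6+SKM changed 26, 12 higher and 14 lower (background 22% of all genes tested, 11.8% higher and 10.2% lower). The median log2 fold change under GATA4 was -0.37 over the members and 0.06 over all genes. HNF4a+SKM and GRB2+SKM each changed 24, 10 higher and 14 lower (backgrounds 42.5% of all genes tested, 22.9% higher and 19.5% lower, for HNF4a, and 40.3% of all genes tested, 23.2% higher and 17.1% lower, for GRB2). CEBPa+SKM changed 20, 9 higher and 11 lower (background 34.6% of all genes tested, 20% higher and 14.7% lower). SOX7+SKM changed 17, 6 higher and 11 lower (background 12.1% of all genes tested, 6.32% higher and 5.77% lower), PAX1+SKM 11, 7 higher and 4 lower (background 15.7% of all genes tested, 9.61% higher and 6.13% lower), and MIXL1+SKM 4, 2 higher and 2 lower (background 2.1% of all genes tested, 1.05% higher and 1.05% lower). The counts for GATA4 and GATA6 moved by less than 1.5 times whichever array was left out. Without SKM+EV replicate 1 they were 14 for HNF4a, 13 for GRB2, 9 for CEBPa, 10 for SOX7, 5 for PAX1 and 0 for MIXL1, and without SKM+EV replicate 2 they were 13 for CEBPa and 1 for MIXL1. Without the factor's own replicate 1 they were 12 for GRB2, 11 for CEBPa, 9 for SOX7, 6 for PAX1 and 1 for MIXL1, and without its replicate 2 they were 8 for CEBPa and 0 for MIXL1. In the fit of the set alone the counts were 26 for SOX7 (background 24.8%), 22 for PAX1 (background 32.8%) and 9 for MIXL1 (background 6.9%). Over all genes, CEBPa+SKM, HNF4a+SKM and GRB2+SKM were almost as alike as replicates: each array correlated at 0.991 to 0.994 with its nearest array of another of these 3 groups, and at 0.993 to 0.995 with its own replicate. SKM+EV and MIXL1+SKM came near this too. Their arrays correlated at 0.979 to 0.985 with the nearest array of the other group. With the own replicate it was 0.986 in SKM+EV and 0.991 in MIXL1+SKM. Tested over the 10 SKM groups together, 48 of 59 members differed, where the background was 81.4%, and the widest ranges belonged to Igfbp5, Pdgfra, Igfbp4, Fgfbp1, Igfbp3, Fgf18, Pgf, Pdgfrl, Fgfr3 and Igfbp6.

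**Figure D3:**
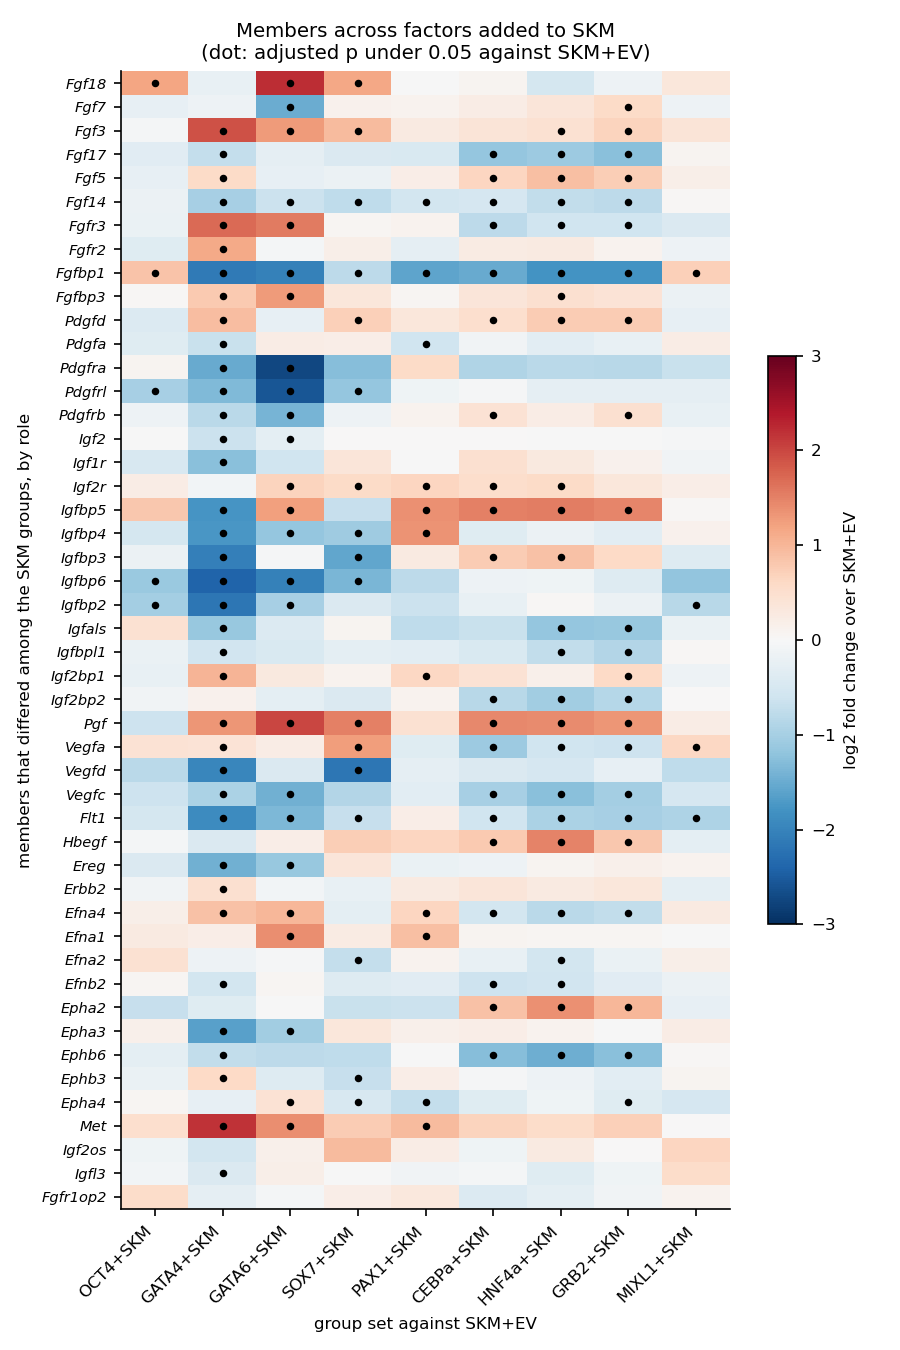
Log2 fold change over SKM+EV (colour) of the 48 genes that differed among the SKM groups (rows), for each added factor (columns); a dot marks adjusted p under 0.05. GATA4 has a log2 fold change of -2.41 for Igfbp6 and 2.16 for Met, and the columns of CEBPa, HNF4a and GRB2 all show Igfbp5 higher and Fgfbp1 lower.

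Of the 10 genes with the widest ranges, 4 were IGF-binding proteins. Igfbp7, which was near the top of the scale, had the narrowest range of the 59, 0.11 in log2 units, without a call. Igfbp5 had 11401 and 12670.4 in HNF4a+SKM, 11644 and 11898 in CEBPa+SKM, 11323 and 11688 in GRB2+SKM, 10706 and 10861 in PAX1+SKM and 10133 and 9489 in GATA6+SKM, against 4292 and 3976 in SKM+EV. It was higher in these 5 groups, with log2 fold changes of 1.53, 1.50, 1.47, 1.38 and 1.24 and adjusted p-values of 5.73e-04, 8.95e-04, 9.85e-04, 0.00452 and 0.00683. GATA4+SKM went the other way, with 1386, 956 and 1242 (log2 fold change -1.78 ± 0.30, adjusted p = 2.53e-05). All of these lay below MEF1 EV, at 28094 and 30448. Igfbp4 had 49037 and 48627 in PAX1+SKM, against 18949 and 19434 in SKM+EV (log2 fold change 1.35 ± 0.20, adjusted p = 1.52e-05), and it fell to 5991, 5856 and 5186 in GATA4+SKM (log2 fold change -1.75 ± 0.19, adjusted p = 6.01e-09). GATA6+SKM and SOX7+SKM were also low, at 9044 and 8042 and 9829 and 8522, with log2 fold changes of -1.17 and -1.07 (adjusted p = 5.16e-05 and 4.58e-04). Igfbp3 had 697, 586 and 632 in GATA4+SKM (log2 fold change -2.05 ± 0.23, adjusted p = 1.46e-08) and 970.1 and 861 in SOX7+SKM (log2 fold change -1.55 ± 0.25, adjusted p = 4.41e-05), against 2366 and 3171 in SKM+EV. The call of a higher level in HNF4a+SKM, at 5087 and 5078, did not hold without SKM+EV replicate 1 (0.68, adjusted p = 0.0987). Igfbp6 had 610.5, 715 and 659.6 in GATA4+SKM, against 3606 and 3673 in SKM+EV (log2 fold change -2.41 ± 0.33, adjusted p = 8.11e-07), and 928 and 819.6 in GATA6+SKM (log2 fold change -2.02 ± 0.36, adjusted p = 7.94e-05). Igfbp2 had 386, 394 and 401 in GATA4+SKM, against 2088 and 1689 in SKM+EV (log2 fold change -2.17 ± 0.21, adjusted p = 6.17e-10). In GATA4+SKM all 5 of these binding proteins were lower, with no array overlapping SKM+EV. Igf2 and Igfbp7 sat at the top of the scale in this set, so no rise could be seen; Igf2 had 40209, 40489 and 43369 in GATA4+SKM, against 63751 and 65219 in SKM+EV.

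Of the PDGF receptors, Pdgfra had 1545 and 1793 in GATA6+SKM, against 12369 and 10321 in SKM+EV (log2 fold change -2.74 ± 0.51, adjusted p = 1.27e-04). GATA4+SKM had 3963, 3952 and 3907 (-1.51 ± 0.47, adjusted p = 0.00761). SOX7+SKM, at 4350.2 and 5024, lay below SKM+EV too but did not pass the test (adjusted p = 0.104), and PAX1+SKM had 16574 and 16883 (adjusted p = 0.488). Pdgfrb, the other signalling receptor, had 1287 and 1178 in GATA6+SKM, against 3353 and 3194 in SKM+EV (log2 fold change -1.39 ± 0.14, adjusted p = 2.64e-08). Pdgfrl had 845 and 814 in GATA6+SKM, against 5148 and 4926 in SKM+EV (log2 fold change -2.56 ± 0.20, adjusted p = 1.07e-11), and 2558 and 1982 in SOX7+SKM (log2 fold change -1.15 ± 0.20, adjusted p = 1.22e-04). GATA6+SKM was the lowest group of the set for all 3 genes. Of the 14 fibroblast markers, 1 of which is Pdgfra, 8 fell in GATA4+SKM and 8 in GATA6+SKM, with sums of 179778 to 194556 and 150054 to 151147, against 230850 to 248010 in SKM+EV. The part of these markers in the lower PDGF receptors was not tested.

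Of the VEGF family, Vegfa had 8010.5 and 7964 in SOX7+SKM, against 3428 and 3205 in SKM+EV (log2 fold change 1.26 ± 0.15, adjusted p = 5.16e-07), the highest of all groups in this set. In CEBPa+SKM it was lower, at 1496 and 1580.4 (log2 fold change -1.09 ± 0.15, adjusted p = 1.90e-06). Vegfd fell in SOX7+SKM to 1627 and 1566, against 7402 and 7231 in SKM+EV (log2 fold change -2.17 ± 0.28, adjusted p = 1.57e-06), and likewise in GATA4+SKM, with 1886, 2121 and 1587 (log2 fold change -1.96 ± 0.26, adjusted p = 3.00e-07). SOX7 is a factor of endothelial development. Of 8 listed endothelial markers, 4 were measured and 3 of these were higher in SOX7+SKM. Their sums were 1186 to 1192 there, the highest of the set, against 624 to 707 in SKM+EV. Apart from GATA4+SKM and MIXL1+SKM, the other factors also gave sums above SKM+EV, such as 1039 to 1064 in CEBPa+SKM and 872 to 953 in OCT4+SKM. MEF1 EV had 611 to 947. The part of these markers was not tested. Pgf had 750.3 and 696 in GATA6+SKM, against 164 and 147 in SKM+EV (log2 fold change 2.01 ± 0.27, adjusted p = 9.28e-07). By values alone, OCT4+SKM, at 90.9 and 89.5, was the lowest of the SKM groups and GATA6+SKM the highest, and all of them lay above MEF1 EV, at 63.8 and 48.0. Flt1, the receptor of Pgf, had 549, 537 and 589 in GATA4+SKM, against 2151 and 2157 in SKM+EV (log2 fold change -1.89 ± 0.17, adjusted p = 3.26e-10), and 827 and 814 in GATA6+SKM (log2 fold change -1.36 ± 0.19, adjusted p = 1.58e-06). In HNF4a+SKM and GRB2+SKM it had 1125 and 1071 and 993 and 1147, with log2 fold changes of -0.95 and -0.99 (adjusted p = 1.94e-04 and 1.41e-04).

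Among FGF genes, Fgf18 had 1122 and 1048 in GATA6+SKM, against 213 and 204 in SKM+EV (log2 fold change 2.21 ± 0.29, adjusted p = 1.15e-06). Fgfr3 had 934, 979 and 848 in GATA4+SKM (log2 fold change 1.70 ± 0.19, adjusted p = 1.51e-08) and 744 and 932 in GATA6+SKM (log2 fold change 1.57 ± 0.21, adjusted p = 6.27e-07), against 257 and 262 in SKM+EV. On the arrays of every other group of the set it was between 135 and 324. Fgfr2 had 5319.5, 3978 and 4689 in GATA4+SKM, against 1693 and 2593 in SKM+EV (log2 fold change 1.13 ± 0.18, adjusted p = 6.87e-06). Met had 2092, 1654 and 2454 in GATA4+SKM, against 311 and 594 in SKM+EV (log2 fold change 2.16 ± 0.30, adjusted p = 7.13e-07). In GATA6+SKM it had 1087 and 1274 (1.38, adjusted p = 0.00201), a call lost without SKM+EV replicate 1 (0.95, adjusted p = 0.117). The ephrin Efna4 had 1929, 1989.96 and 1668 in GATA4+SKM (log2 fold change 0.88 ± 0.17, adjusted p = 6.56e-05) and 2029 and 2005 in GATA6+SKM (log2 fold change 1.00 ± 0.18, adjusted p = 9.15e-05), against 900.3 and 1101 in SKM+EV. Of 4 markers of simple epithelium, 2 rose in GATA6+SKM, with sums of 38444 to 45963, against 9205 to 13473 in SKM+EV. Those sums were the highest of the set, and their part in the values of GATA6+SKM for Fgf18, Fgfr3, Met, Efna4 and Pgf was not tested. Ephb6, an Eph receptor without kinase activity, fell in the 3 groups that were alike over all genes: it had 315 and 225 in CEBPa+SKM, 215 and 249.6 in HNF4a+SKM and 263 and 279.9 in GRB2+SKM, against 726 and 656 in SKM+EV, with log2 fold changes of -1.27, -1.45 and -1.25 (adjusted p = 0.00108, 2.09e-04 and 0.00114). Hbegf had 668 and 828 in HNF4a+SKM, against 220 and 272 in SKM+EV (log2 fold change 1.49 ± 0.31, adjusted p = 2.66e-04). Downstream genes under GATA4 are read against the background of 29% higher and 24.8% lower. Of 17 ERK feedback and target genes 2 rose and 4 fell, Fosl1 by 1.77 on the log2 scale, a share no larger than that background in either direction. Of 24 adaptors and Ras-MAPK kinases 5 rose and 5 fell, with Rps6ka1 up by 1.71 and Sos2 by 1.43, and of 10 co-receptors 2 rose and 6 fell, with Gpc2 up by 2.12 and Gpc3 down, at -2.10.

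Fgfbp1 was the member called most often. Over SKM+EV, at 1729 and 1571, it was higher in OCT4+SKM, as given above. In MIXL1+SKM it had 2792 and 2679.7 (log2 fold change 0.72 ± 0.16, adjusted p = 0.00873), a call lost on leaving out any single array of the 4 (adjusted p = 0.052 to 0.104). It was lower in the other 7 groups: SOX7+SKM had 962 and 916 (-0.79, adjusted p = 8.63e-04), CEBPa+SKM 557 and 565 (-1.50), PAX1+SKM 526 and 525 (-1.59) and GRB2+SKM 432 and 473 (-1.80). HNF4a+SKM had 449 and 449.9 (-1.80), and the 2 GATA factors gave the lowest values, with 388 and 367 in GATA6+SKM (-2.04) and 353, 312 and 409 in GATA4+SKM (log2 fold change -2.11 ± 0.15, adjusted p = 6.53e-13). The last 2 groups were near MEF1 EV, at 334 and 374. Fgfbp1 is made by keratinocytes, whose markers were measured beside it. Their summed intensity over 5 genes was 23795 to 27006 in OCT4+SKM, 54441 to 61798 in MIXL1+SKM, 51160.4 to 59784 in SOX7+SKM and 56345 to 59882 in GATA6+SKM, against 60495 to 68954 in SKM+EV. In the rest it was between 7274 in PAX1+SKM and 23153 in CEBPa+SKM, with GATA4+SKM at 11822 to 13869. In the lines, G3 had the highest Fgfbp1 and, over 7 markers, the highest sum, at 6860.4 to 7489, against 1658 to 1725 in MEF. The part of these markers in the Fgfbp1 values was not tested.

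**Figure D4:**
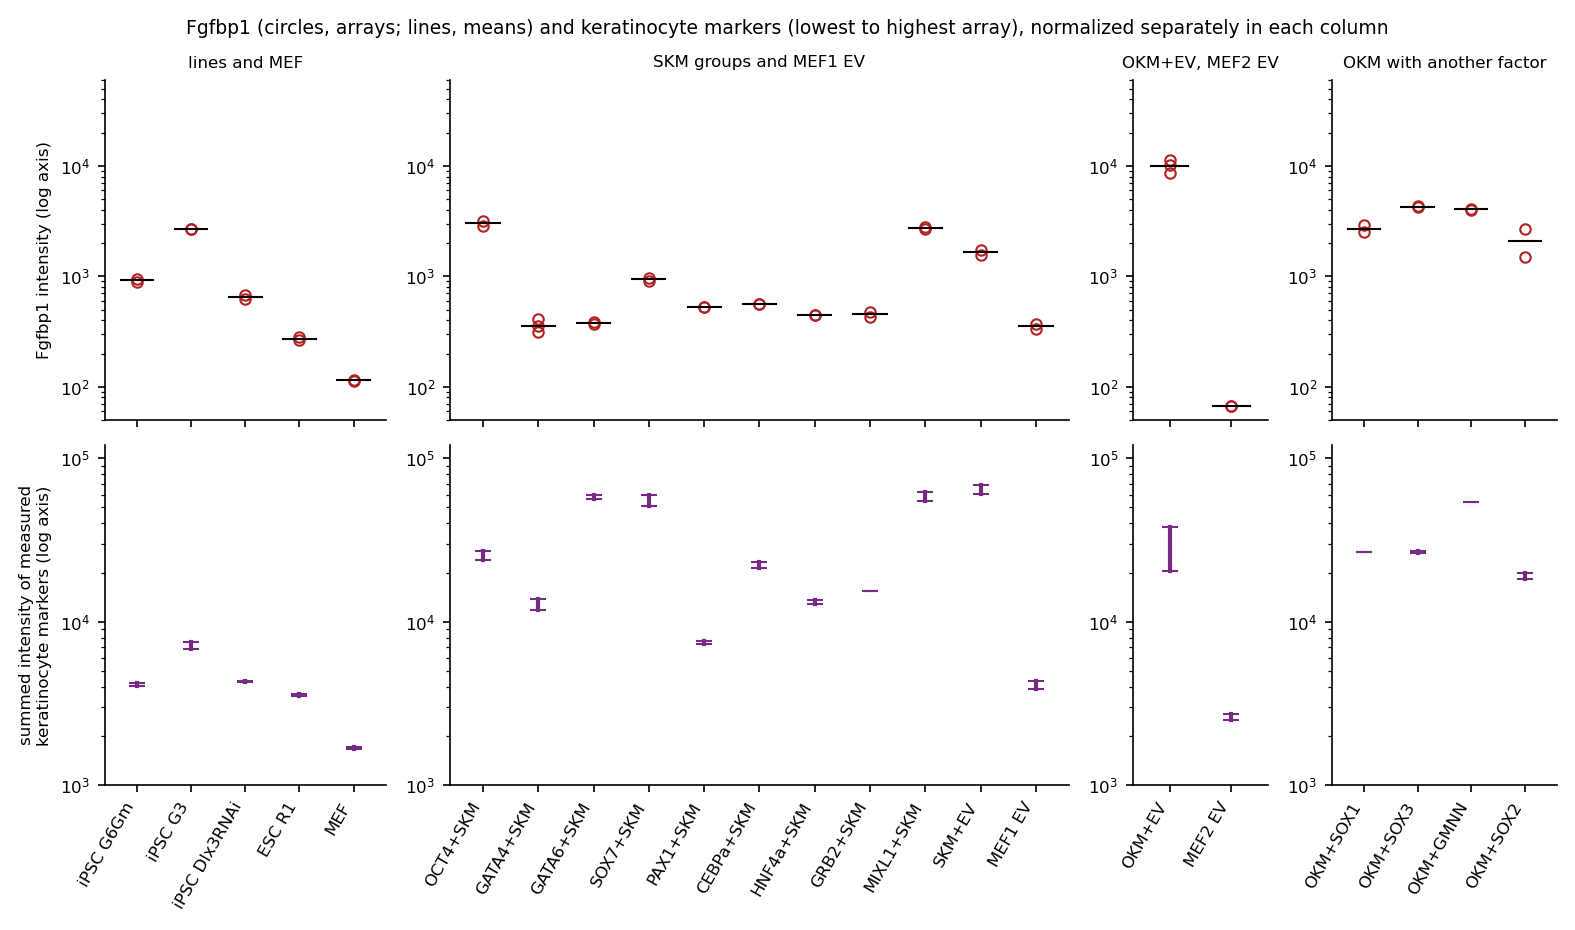
Fgfbp1 intensity on every array (points, log axis) and the range of the summed keratinocyte markers (bars, log axis), by group, with each set of arrays in a panel of its own. Fgfbp1 is above the empty-vector or uninfected fibroblasts on every array of the pluripotent lines, SKM+EV, OCT4+SKM and OKM+EV.

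OCT4, KLF4 and MYC without SOX2 were compared with MEF2 EV. Fgfbp1, Igf1r and Epha4 rose. One array, OKM+EV replicate 3, correlated at 0.843 to 0.884 with the others of its group over all genes, which correlated at 0.986 with each other, so the results are given with and without it. In the fit over all 49 arrays, 35 of 73 measured members passed the test, 17 higher and 18 lower, where the background was 40.8% of all genes tested, 19.8% higher and 21.1% lower. In a fit of the 5 arrays of this set alone, 3 members passed, all higher, where the background was 5.55%. Without replicate 3, 38 passed in that fit, 15 higher and 23 lower, where it was 46.6%. On simulated data the fit over all arrays made many false calls here and the fit of the set alone found almost no changed gene. The simulated arrays of the set all had the same spread per gene, whereas in the data replicate 3 stood apart from its group. The simulation therefore does not match these data closely, and neither count is taken to measure how many members changed. The median spread of replicates was larger in this set than in the others, and a gene is said here to have changed only if it passed in both fits with replicate 3 in. Fgfbp1 had 10204, 11252 and 8657 in OKM+EV, against 67.4 and 66.6 in MEF2 EV (log2 fold change 6.66 ± 0.15, adjusted p = 2.07e-25, and 0.000592 in the set alone). Igf1r had 2210.4, 2158 and 3155 in OKM+EV, against 588 and 464 in MEF2 EV (log2 fold change 2.17 ± 0.33, adjusted p = 3.12e-06, and 0.0127 in the set alone). Epha4 had 1133, 1140 and 1345 in OKM+EV, against 307 and 360.2 in MEF2 EV (log2 fold change 1.76 ± 0.13, adjusted p = 2.03e-12, and 0.0251 in the set alone). For the 3 genes all arrays of OKM+EV, replicate 3 included, lay above both of MEF2 EV.

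Other members passed in the fit over all arrays and not in the set alone, and their values follow in the order of replicates 1, 2 and 3. Igfbp5 had 2906, 4142 and 12166 in OKM+EV, against 19153 and 17540.4 in MEF2 EV, with an adjusted p of 0.121 in the set alone. Pdgfra had 709.8, 712 and 7438 in OKM+EV, against 421 and 446 in MEF2 EV (0.341), where replicate 3 was the high array, and Egfr had 661, 993 and 2301 in OKM+EV, against 2036 and 2585 in MEF2 EV (0.327), where the first 2 arrays lay below MEF2 EV. Epha2 had 591, 632 and 222 in OKM+EV, against 82.2 and 66.6 in MEF2 EV (0.0515), and Vegfa had 7566, 7164 and 5168 in OKM+EV, against 2968 and 3276 in MEF2 EV (0.073); for both, all arrays of OKM+EV lay above MEF2 EV. Igf1, the other IGF ligand, measured in this set, had 53.0, 604 and 686 in OKM+EV, against 3341 and 2960.2 in MEF2 EV (0.0854), with all 3 arrays below MEF2 EV. Igfals had 5808, 3858 and 1014 in OKM+EV, against 1181 and 1122 in MEF2 EV (0.327), and replicate 3 was below MEF2 EV. Kit had 155, 84.6 and 314 in OKM+EV, against 124 and 80.0 in MEF2 EV and Pgf 51.6, 92.2 and 244 in OKM+EV, against 108 and 138 in MEF2 EV, with overlapping arrays, and neither passed in either fit. Markers moved with this contrast. Macrophage markers, 6 of 6 lower in the fit over all arrays, summed to 1090.4 to 3997 in OKM+EV, against 34809 to 42764 in MEF2 EV. Keratinocyte markers, 6 of 8 higher, summed to 20506 to 38195 against 2514 to 2722, and those of simple epithelium, 5 of 5 higher, to 11991 to 20669 against 1049 to 1203. The fibroblast sums were 180851 to 212527 and 178658 to 185736. Csf1r, the receptor tyrosine kinase of macrophages and a marker in that list, had 179, 149 and 184 in OKM+EV, against 12385 and 9843 in MEF2 EV. The part of these cells in the results was not tested.

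**Figure D5:**
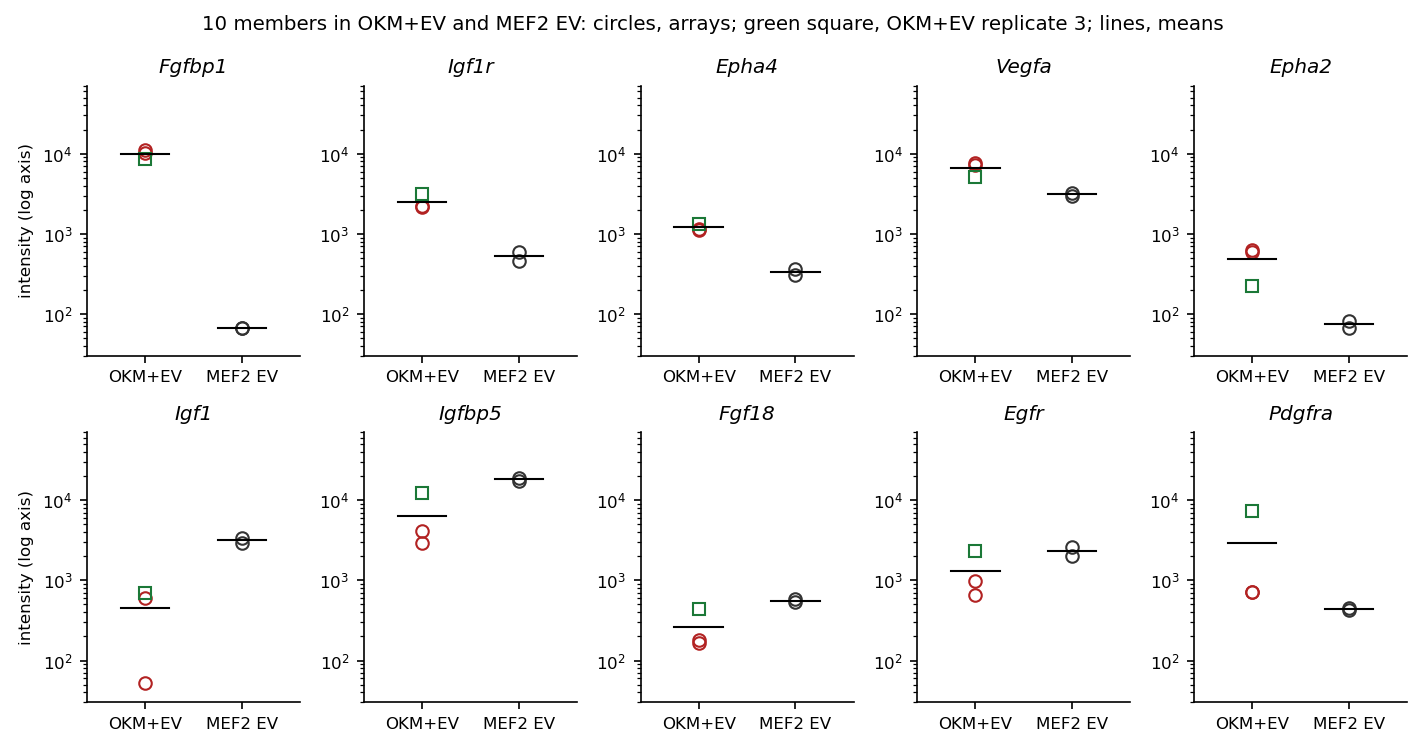
Intensity of 10 genes (log axis) on the 3 arrays of OKM+EV and the 2 of MEF2 EV; the green square is OKM+EV replicate 3. Fgfbp1, Igf1r and Epha4 lie above MEF2 EV on all 3 arrays, and for Pdgfra the square stands far above the other 2 arrays of its group.

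With OKM, SOX1, SOX3 and GMNN (geminin, a regulator of DNA replication) were each compared with SOX2. Few genes of any kind passed, members included. The fit over all arrays called 4.6%, 15.4% and 9.2% of members, against 5.72%, 6.31% and 7.23% of all genes. The share for SOX3 was above its background there, but in the set alone no member passed for SOX3. OKM+SOX2 replicate 1 stood apart, with a correlation of 0.905 with replicate 2 and of 0.890 to 0.901 with the arrays of other groups. In the fit over all arrays, 3 of 65 members passed in OKM+SOX1, none higher and 3 lower (background 5.72% of all genes tested, 3.66% higher and 2.06% lower), 10 in OKM+SOX3, 4 higher and 6 lower (background 6.31% of all genes tested, 3.42% higher and 2.89% lower), and 6 in OKM+GMNN, 2 higher and 4 lower (background 7.23% of all genes tested, 4.38% higher and 2.85% lower). The counts without OKM+SOX2 replicate 1 were 0, 3 and 3, and without its replicate 2 that of OKM+SOX1 was 9. Without the factor's own replicate 1 they were 1 for SOX1, 3 for SOX3 and 2 for GMNN, and without its replicate 2 they were 5 for SOX3 and 2 for GMNN. In a fit of the 8 arrays of this set alone, 0 passed in OKM+SOX1 and OKM+SOX3 and 1 in OKM+GMNN, where the background was 0.215%, 0.241% and 2.03% of all genes. Without OKM+SOX2 replicate 1 in that fit the counts were 0, 0 and 2, beside 0.268%, 0.259% and 2.12%. The 1 gene that passed in both fits was Igfals, with 4615 and 4683 in OKM+GMNN, against 1478 and 1561 in OKM+SOX2 (log2 fold change 1.59 ± 0.43, adjusted p = 0.0168, and 0.0127 in the set alone). Both arrays of OKM+GMNN lay above every array of the other groups of the set. In the fit over all arrays its call was lost without OKM+SOX2 replicate 1 (1.56, adjusted p = 0.134) and without either GMNN array. Fgfbp1 had 4362 and 4204 in OKM+SOX3, 4092 and 4002 in OKM+GMNN and 2904 and 2518 in OKM+SOX1, against 1510.5 and 2667 in OKM+SOX2, where replicate 1 was the lowest array. Keratinocyte markers summed to 53887 to 53999.8 in OKM+GMNN, 26679.5 to 26703 in OKM+SOX1 and 26298 to 26996 in OKM+SOX3, against 18196 to 19975 in OKM+SOX2. Igf1r had 1989 and 2215 in OKM+SOX3, 831 and 832 in OKM+SOX1 and 818 and 727 in OKM+GMNN, against 146 and 994 in OKM+SOX2. OKM+SOX2 spanned a wide range there and in Ephb4, at 304 and 3705, with replicate 1 the low array in both.

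ESC B6, in a set of its own, gives levels with no comparison. There Igf2bp1 had 8479.8, 8946 and 9321, Pdgfa 6026, 6043 and 6163, Igfbp2 3892, 3582 and 3937 and Kit 2540.4, 2531 and 2262. Fgfr2 had 2089.8, 1980.5 and 2066, Fgfbp1 1549.7, 1820 and 1583, Pgf 235, 217 and 238 and Pdgfra 33.0, 29.1 and 38.5. For each gene the 3 arrays lay close together. In this set the median gene had a mean intensity of 496 and the upper quartile was 2041. Pgf lay below that median, and Fgfr2 lay near that upper quartile. The results against MEF cover only the lines measured with MEF, and whether they hold in B6 was not tested. The sets were scaled separately and no sample links them, so these levels are not set against those of the other lines.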

How the data were processed

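Gene expression was measured on 49 one-colour arrays labelled with Cy5, in 23 groups: 20 of 2 arrays and 3 of 3. The deposited values are linear intensity values, 1 for each probe and array, as the values themselves show. How the authors extracted, background-corrected and normalized them is not given in the sources used here. By their values the arrays form 5 sets: arrays of a set share the probes without a value and have almost the same sorted intensities, and arrays of different sets do not. The set of the SKM groups coincides less closely, with a median deviation of 0.72% against 0.0184% to 0.0573% in the others. A difference between sets cannot be told apart from one between their groups, so comparisons stay within a set. How scaling or centring differed between sets is unknown. Scanner values, detection calls and scan batches were not used here, so no probe was called as above or below background.

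Of 19426 probes, 15539 had 1 gene symbol and 3887 had none. Symbols were updated through RefSeq: 13971 probes matched a current symbol and 1538 a synonym of only 1 gene, and the platform's name was kept for 30. The probe with the highest mean stood for a gene. A gene was tested where every array of its set had a value, which left 11991 genes for the lines and MEF, 10006 for the SKM set, 11947 for OKM+EV and 11188 for the other OKM groups. Of the 79 members, 70, 59, 73 and 65 were measured in these sets, and 72 in that of ESC B6. The arrays were all different in their values.

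Values were taken as log2 of the intensity plus 32, which understates the change of dim genes, with negative values set to 0. limma 3.58.1 in R 4.3.3 fitted 1 mean per group over all 49 arrays, with an intensity trend in the variance, for 23 contrasts. A mean over several lines weighted each equally. Tests were two-sided, with Benjamini-Hochberg adjustment over all genes of a contrast and a threshold of 0.05. The fit was tested on simulated data, where it made few false calls for the lines and the SKM set but missed more small changes than a fit of the set alone, and made more false calls than its threshold allows for OKM+SOX1 and far more for OKM+EV. The simulated arrays of a set all had the same spread per gene. In the data, OKM+EV replicate 3 and OKM+SOX2 replicate 1 stood apart from their groups. The simulation therefore does not match the data of OKM+EV and OKM+SOX1 against OKM+SOX2 closely. The number of arrays limits the precision.

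The fit over all arrays pools a spread that differs between sets: the median residual SD on the log2 scale was 0.387 in the set of OKM+EV, 0.222 in that of the other OKM groups, 0.16 in the SKM set and 0.142 in that of the lines. Its standard errors are therefore too small for OKM+EV and the other OKM groups and too large for many genes of the SKM set and the lines. Counts from a fit of the set alone stand beside those they change by over 1.5 times.

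Genes were named by a rule: members that passed the test without overlap between the arrays of the 2 sides, whose brighter side lay above the median gene of the set, by size of change, at least 2-fold and up to 14 in each direction in the comparisons with MEF, MEF1 EV (for SKM+EV) and MEF2 EV, and up to 8 elsewhere. For a test over several groups, the 10 members with the widest range were named, for a pathway list up to 4 genes, and any receptor could be named. Values of other members are given as description. The members, lists and tests were chosen with earlier results of these data known.

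Alternatives tried were pseudocounts of 16 and 100, quantile normalization of each set again, no intensity trend, leaving out the genes below the lower quartile of the set, the mean of a gene's probes, a fit of each set alone, the same with the replicate number as a block, and each array left out in turn. The labels number the replicates but tie no number to a culture or day. Correlations were taken between the deviations of same-numbered arrays of different groups. The median correlation was 0.04, 0.02, 0.01 and 0.07 in the sets of OKM+EV, the other OKM groups, SKM and the lines. Single pairs ran from -0.50 to 0.51 in the SKM set and from -0.24 to 0.24 in that of the lines. They ran from -0.18 to 0.25 in the set of OKM+EV and from -0.13 to 0.08 in that of the other OKM groups. In no set were all pairs above 0.1.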

Additional observations from a re-analysis of the deposited data

Results flagged for a closer look

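All results here are differences between iPSC lines of the same strain, tested directly between the lines with limma and given as log2 fold changes with adjusted p-values over all genes. The lists hold only members that the naming rule picked both for the pair of lines and in a comparison with R1. They are shorter than the counts of members called for these pairs.

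G6Gm was above G3 in Egfr (2.07, adjusted p = 4.34e-06), Igfbp5 (1.95), Epha4 (1.59, adjusted p = 9.87e-10), Igf2 (1.48, adjusted p = 6.65e-12), Hbegf (1.39), Flt1 (1.36) and Igf1r (1.23, adjusted p = 0.0142). It was below G3 in Efna1 (-1.01), Igfbp3 (-1.03) and Fgfbp1 (-1.50, adjusted p = 2.74e-08).

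The line labelled Dlx3RNAi was above G3 in Igfbp5 (2.01, adjusted p = 4.25e-05), Egfr (2.00), Igf2 (1.95, adjusted p = 2.03e-14), Flt1 (1.87), Epha4 (1.60) and Hbegf (1.42). It was below G3 in Efna1 (-0.87), Igfbp3 (-1.35), Igfbp2 (-1.40), Kit (-1.42, adjusted p = 0.00514), Fgfr2 (-1.66, adjusted p = 1.46e-07) and Fgfbp1 (-1.99, adjusted p = 9.46e-11). The 2 comparisons share the arrays of G3.

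Dlx3RNAi differed from G6Gm in Igf2 (0.47, adjusted p = 0.0086), Igfbp2 (-0.80, adjusted p = 0.0455) and Fgfr2 (-1.51, adjusted p = 2.11e-05).

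The fibroblast marker sums were 85497 to 90251 in G6Gm, 105315 to 114099 in Dlx3RNAi and 50750 to 50779 in G3. Those of simple epithelium were 1754 to 2152 in G6Gm, 3082 to 3551 in Dlx3RNAi and 6277 to 6443 in G3. The part of either in these differences was not tested.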

How the results depend on the processing

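Of 261 named results, 163 kept direction and call under every alternative tried. In 83 a call was lost or turned when 1 array was left out, and in 36 under another alternative. Both results that reversed concern Fgfrl1 with its probes averaged: -0.17 (adjusted p = 0.737) in GATA4+SKM against SKM+EV and 0.63 (adjusted p = 0.482) in OKM+GMNN against OKM+SOX2.

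In a fit of the set alone, counts of members called became 32 for the iPSC lines against R1, 20 for G3, 32 for Dlx3RNAi, 16 for OCT4+SKM against SKM+EV, 26 for SOX7, 22 for PAX1, 9 for MIXL1, 3 for OKM+EV, 0 for OKM+SOX1, 0 for OKM+SOX3, and 1 for OKM+GMNN. Summed over the 3 pairs of iPSC lines, where a member counts once for each pair, the calls became 84, against 51. With the replicate block in that fit they were 32, 20, 31, 15 for OCT4+SKM, 21 for PAX1, 8 for MIXL1, 0 for OKM+SOX1, 0 for OKM+SOX3, 1 for OKM+GMNN and 83 summed over the pairs of iPSC lines; the block changed no other count by over 1.5 times. Without OKM+SOX2 replicate 1, a setting chosen after seeing the data, the set alone gave 0 for OKM+SOX1, 0 for OKM+SOX3 and 2 for OKM+GMNN. With the dimmest genes of the set left out, GRB2+SKM had 15. The cause was not tested.

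With 1 array left out, the counts ranged as follows: 8 to 13 for CEBPa+SKM against SKM+EV, 40 to 47 for difference between iPSC lines, 28 to 39 for GATA4+SKM against SKM+EV, 21 to 25 for GATA6+SKM against SKM+EV, 12 to 18 for GRB2+SKM against SKM+EV, 14 to 24 for HNF4a+SKM against SKM+EV, 40 to 52 for iPSC and ESC lines against MEF, 13 to 15 for iPSC Dlx3RNAi against ESC R1, 8 to 10 for iPSC G3 against ESC R1, 13 to 16 for iPSC G6Gm against ESC R1, 10 to 19 for iPSC lines against ESC R1, 0 to 1 for MIXL1+SKM against SKM+EV. They ranged 14 to 19 for OCT4+SKM against MEF1 EV, 3 to 4 for OCT4+SKM against SKM+EV, 24 to 45 for OKM+EV against MEF2 EV, 2 to 9 for OKM+GMNN against OKM+SOX2, 0 to 9 for OKM+SOX1 against OKM+SOX2, 3 to 15 for OKM+SOX3 against OKM+SOX2, 5 to 9 for PAX1+SKM against SKM+EV, 27 to 29 for pluripotent lines differ among themselves, 47 to 50 for SKM groups differ among themselves, 12 to 18 for SKM+EV against MEF1 EV, 9 to 15 for SOX7+SKM against SKM+EV. A lone array was taken to vary like the other groups.

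Groups of 2 arrays limit what can be seen: a change of a dim gene, or a rise of one at the top of the scale such as Igf2, can be missed. No detection calls were used.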
